A study of Mus musculus with 8 samples.

Results

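The baseline expression of the adult mouse striatum is described here from 4 libraries of poly(A) RNA, one from each of 4 wild-type mice aged 12 months. They are 4 of the 8 libraries of the series and were chosen by genotype alone. The other 4 came from Dclk3 knockout mice and are not analysed here, so no genotype is compared. Each library was made from a single striatum of 1 mouse, starting from 1000 ng of total RNA, with a stranded kit and 12 cycles of PCR. The labels do not give the strain or the sex, and no treatment or transgene is named. Ddx3y, a gene of the Y chromosome, stood at 77.8 CPM on average, and Xist, the RNA made from an inactive X chromosome, at 0.0533 CPM, below what 3 counts stand for in each library. Levels are given as counts per 1000000 counts of a library (CPM), or, to compare genes with each other, as the same measure after division by the length of a gene's exons (TPM). Values are means ± SD over the 4 mice, and lists of 4 values run from replicate 1 to replicate 4.

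The striatum is the input nucleus of the basal ganglia. Most of its neurons are GABAergic spiny projection neurons, which receive glutamate from the cortex and thalamus and dopamine from the midbrain. Those of the direct pathway carry the D1 dopamine receptor and make tachykinins and dynorphin, and those of the indirect pathway carry the D2 dopamine receptor and an adenosine receptor and make enkephalin. Dopamine and adenosine act in these cells through cyclic AMP, protein kinase A and the phosphatase inhibitor DARPP-32. Cholinergic and GABAergic interneurons, astrocytes, oligodendrocytes, microglia and vessels make up the rest of the tissue.

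Total counts were 29487290, 35673708, 28776767 and 37145559, so that 1 count stood for 0.0269 to 0.0348 CPM. Of 31417 genes listed, 20339 were counted in every library, 7284 in 1 to 3 of them and 3794 in none. No 2 libraries were copies of each other, since their counts differed by a chi-square of 8.01 to 32.1 per degree of freedom. The 14 markers shared by spiny neurons, by which the tissue label was checked, summed to 9394, 8265, 8061 and 8233 TPM. Replicate 4 also held choroid plexus RNA in amounts that the others did not. The 9 markers of that ventricular epithelium summed to 68.4, 91.2, 41.9 and 2917 CPM, and each of the 9 was highest in replicate 4. Markers of cortical glutamatergic neurons, which are not known to lie in the striatum, summed to 1322, 1964, 1577 and 1680 CPM. Cck, Slc17a7, Neurod6, Tbr1 and similar values below are therefore levels of the dissected piece. In bulk tissue, fewer cells of a type and less RNA per cell cannot be told apart.

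Expression was spread over many genes. The most abundant gene held 1.06% ± 0.0761 of the counts and the top 10 genes held 6.15, 5.30, 6.005 and 5.68%. The same 10 genes were the top 10 in every library. The top 100 genes held 17.7% ± 0.552, and the first 1024, 1055, 1051 and 1008 genes reached 50% of the counts. Genes above 1000 CPM numbered 72 and held 14.9% ± 0.515, whereas the 2235 genes between 100 and 1000 CPM held 52.5% ± 0.607. A mean of at least 1 CPM was reached by 14460 genes, at least 10 CPM by 10108 and at least 100 CPM by 2307. The median of the 27623 genes with a count was 1.48 CPM, and the median of the protein-coding ones alone was 15.3 CPM.

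**Figure D1:**
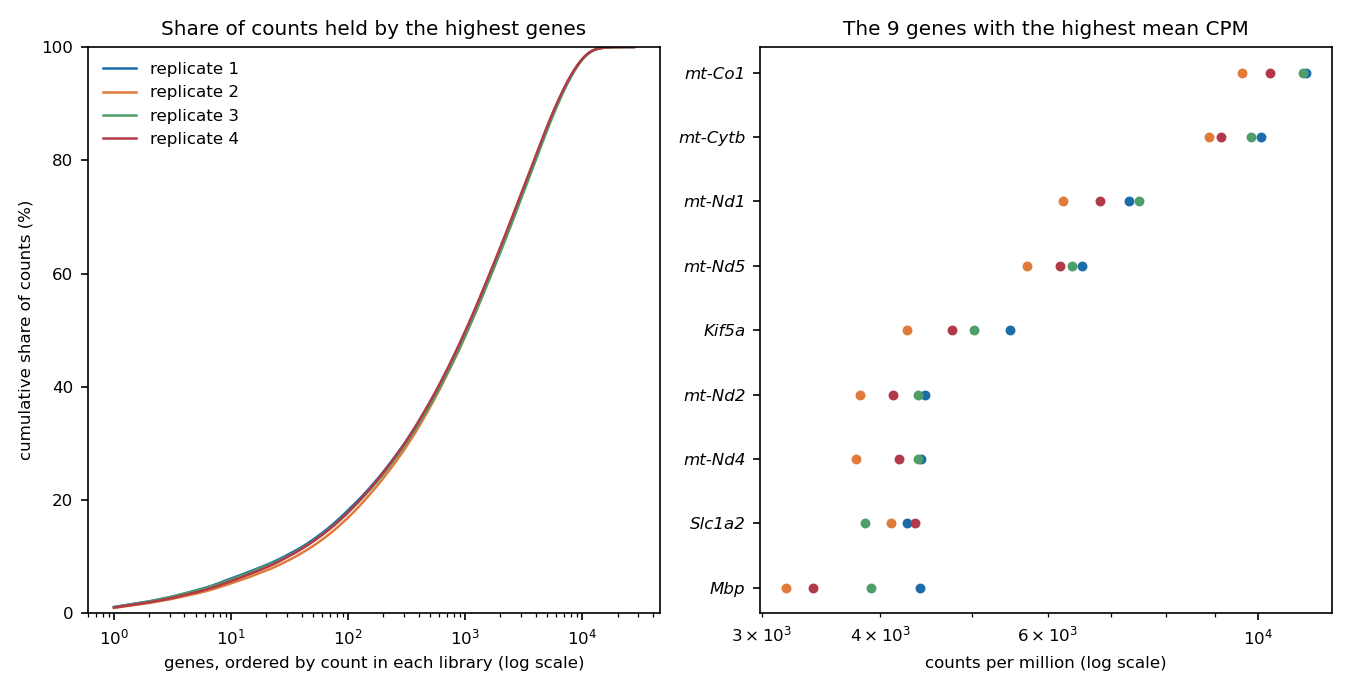
Left, the cumulative percentage of counts against the rank of genes by CPM in each of the 4 wild-type libraries. Right, CPM of the 9 most abundant genes, with 1 point per library. The 4 curves nearly coincide and pass 50% of the counts at 1008 to 1055 genes, and mt-Co1 leads at 9624 to 11226 CPM.

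Mitochondrial respiration, synaptic signalling, axonal transport and myelin accounted for the head of the ranking. Of the 10 most abundant genes, 6 were encoded by the mitochondrial genome. The first was mt-Co1, a core subunit of cytochrome oxidase, at 11226, 9624, 11143 and 10284 CPM. It was followed by mt-Cytb of complex III at 9478 ± 567 CPM, mt-Nd1 at 6964 ± 566 CPM and mt-Nd5 at 6196 ± 356 CPM, both of complex I. Kif5a, a neuronal kinesin motor, was the most abundant nuclear gene at 5474, 4264, 5015 and 4763 CPM. Slc1a2, the main glutamate transporter of astrocytes, stood at 4147 ± 220 CPM. Mbp, myelin basic protein, stood at 4400, 3183, 3911 and 3400 CPM, highest in replicate 1. Camk2a, a calmodulin-dependent kinase subunit of synapses, stood at 3041 ± 202 CPM. Snap25, a protein of vesicle fusion, stood at 2619 ± 282 CPM.

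Per length, the short transcripts moved up. The nuclear gene with the highest TPM was Selenow, a small selenoprotein, at 3780 ± 443, and Cpe, the carboxypeptidase that finishes peptide hormones, stood at 3033 TPM. Penk, the enkephalin precursor, was among the 20 genes with the highest TPM at 2116 ± 241. Calm3 at 2112 ± 62.7 TPM was one of the steadiest of them. Ttr, the thyroid hormone carrier made by choroid plexus, reached the list through replicate 4 alone, with 155, 228, 82.2 and 9483 TPM.

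Protein-coding genes held 98.7% ± 0.0581 of the counts, and 13480 of the 18250 listed reached 1 CPM. Those encoded by the mitochondrial genome held 4.41, 3.81, 4.37 and 4.08% of the counts. Only 10 of these were listed and 7 reached 1 CPM. The share holds almost nothing from mt-Co2 and mt-Co3, described below, so it is not that of all mitochondrial messages. Long non-coding genes held 1.12% ± 0.0490, and 834 of 7031 reached 1 CPM. This class follows the annotation's labels. It takes in all genes labelled processed transcript, among them Cct6a at 165 CPM and Zswim6 at 66.6 CPM. It also takes in 1903 genes labelled TEC, of which 142 reached 1 CPM. Pseudogenes held 0.0946% ± 0.00892, with 104 of 4641 at 1 CPM or more. Genes of the X chromosome held 3.36% ± 0.0443.

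The leading non-coding genes were imprinted RNAs, nuclear RNAs and the uncharacterised 1700020I14Rik. Meg3, an imprinted RNA, stood at 2496, 2395, 2670 and 2145 CPM and so ranked among the 20 most abundant genes of any kind. 1700020I14Rik was the next long intergenic RNA at 625 ± 87.4 CPM. Rian, transcribed from the same imprinted region, stood at 490 ± 76.9 CPM, and Peg13, imprinted elsewhere, at 358 ± 38.6 CPM. Malat1, a nuclear RNA of speckles, stood at 410, 441, 377 and 431 CPM. Miat was at 250 ± 32.3 CPM. Neat1, the scaffold of paraspeckles, varied more, with 211, 116, 210 and 176 CPM and its low value in replicate 2.

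Some genes known to be abundant in most tissues were listed at very low values. Gapdh, the glycolytic enzyme often used as a reference, stood at 8.27 TPM, against 1287 TPM for Actb, 1419 TPM for Eef2 and 449 TPM for Hprt. mt-Co2 and mt-Co3, subunits of the same complex as mt-Co1, were listed at 0.00848 and 0 CPM. These genes share sequence with other annotated genes: 27.8% of the 50-base stretches of the longest Gapdh transcript, and 100% and 99.9% of those of mt-Co2 and mt-Co3, also occurred in transcripts of another gene on either strand. The share was 0% in mt-Cytb and mt-Nd1, but 51.1% in mt-Co1 and 62.2% in mt-Nd4, which stood at 28306 and 12580 TPM, so a shared portion did not by itself go with a low value. Over protein-coding genes the median level fell with this share, from 14.3 TPM for 14850 genes under 10% to 8.45 TPM for 702 genes between 30 and 50% and 0.159 TPM for 188 genes of at least 90%. The 77 cytosolic ribosomal protein genes had a median of 31.1 TPM, and 9 of them were below 1 CPM while 7 exceeded 100 CPM. Their median shared portion was 44.7% in the first set and 6.49% in the second. Rps14, with none, stood at 313 TPM, but Rplp1 reached 1186 TPM with 60%. Over the whole set the medians showed no steady fall, with 55.9, 21.2, 46.2 and 14.6 TPM for 12, 20, 23 and 20 genes sharing under 10, 10 to 30, 30 to 50 and 50 to 90%. The sources used here do not say how reads that match more than 1 gene were counted, and the part of this in the low values was not tested. Levels of genes that share sequence with other annotated genes, as copies or by overlap at the same place, are uncertain for this reason. Among them are the ribosomal proteins, Gapdh, Ppia, Jund, Hbb-bs, Rarb and Igf2. Of these, Jund overlaps Gm11175 on the opposite strand, and Igf2 overlaps Gm49394 on its own strand and Igf2os on the opposite one.

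The 151 receptor genes examined held 0.920% ± 0.0229 of the TPM, with a median of 18.7 TPM, and 127 of them reached 1 CPM. The 151 transcription factors held 0.726% ± 0.0186 with a median of 25.6 TPM. The 177 enzymes and signalling proteins held 3.97% ± 0.0921 with a median of 111 TPM, and the 34 peptide precursors and processing genes held 1.02% ± 0.0957. The lists are of unequal size and were compiled by hand, so these shares describe the lists and not all genes of a class. Within the lists, 525 of 840 pairs of genes that were neighbours in the order had ranges that overlapped over the 4 mice.

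Dopamine receptors were led by the 2 spiny-neuron types. Drd2 (9:49340627-49408177, GRCm38) stood at 305, 240, 235 and 257 TPM. Drd1 (13:54051183-54055705) stood at 234, 198, 213 and 220 TPM. Drd2 was the higher in every mouse, but the lowest Drd2 value lay only just above the highest Drd1 value. Drd5 and Drd3 were far lower, at 3.97 and 2.03 TPM. Drd4 was at 0.124, 1.88, 0.0830 and 0.134 TPM, with nearly all of its signal in replicate 2.

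Among adenosine receptors, Adora2a (10:75316877-75334784), which opposes D2 signalling in indirect-pathway cells, stood at 364, 256.5, 313 and 314 TPM. Adora1, the inhibitory A1 receptor found on many neurons, stood at 178, 200, 176 and 214 TPM, below Adora2a in each mouse. Adora2b and Adora3 were at 6.89 and 1.037 TPM. The muscarinic receptors Chrm1 and Chrm4 were alike in level, at 129 ± 3.14 and 119 ± 5.67 TPM with overlapping ranges, and Chrm3 followed at 31.6 ± 7.78 TPM and Chrm2, the autoreceptor of cholinergic cells, at 17.6 ± 2.29 TPM. Cnr1, the presynaptic cannabinoid receptor, stood at 221, 204, 186 and 216 TPM, and Cnr2 at 0.376 TPM.

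Opioid receptor messages ran in the order Oprl1 (nociceptin), Oprd1 (delta), Oprk1 (kappa) and Oprm1 (mu). Their levels were 59.9 ± 5.61, 28.0 ± 4.86, 20.6 ± 2.14 and 1.85 TPM, with no overlap between neighbours. The mu receptor is known for its concentration in striosomes, the patches that form a minor part of the striatum. Of the serotonin receptors, Htr1b at 51.3 ± 8.01 TPM and Htr2c at 30.2 ± 2.90 TPM led. Their order depended on the length used for scaling. Adra2c, an adrenergic receptor enriched in striatum, stood at 36.1 TPM. Of the 18 orphan receptors measured, the highest, not reported here, reached 722 TPM. Gpr37l1, known from glia, stood at 440 ± 38.997 TPM and Gpr6, known from indirect-pathway cells, at 86.0 ± 7.32 TPM.

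AMPA receptor subunits, which carry fast glutamate currents, followed the order Gria1, Gria2, Gria3, Gria4 in level. Gria1 stood at 341, 377, 332 and 323 TPM, and the others at 176 ± 13.4, 90.8 and 77.5 TPM. No neighbours overlapped, but Gria1 was below Gria2 when the median transcript length was used. Among NMDA receptor subunits, the obligatory Grin1 stood at 193 ± 13.9 TPM, Grin2b at 60.1, 76.4, 49.2 and 73.1 TPM and Grin2a at 30.4 ± 6.99 TPM. Of the metabotropic glutamate receptors, Grm3 and Grm5 were both at 127 TPM, and Grm6, known from retina, had no count in any library, which allows up to 0.0808 to 0.104 CPM.

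Among GABA-A receptor subunits, Gabra3 stood at 168 TPM, Gabrd, known from receptors outside the synapse, at 165 TPM and Gabra4 at 154 TPM. Gabra6, a subunit of cerebellar granule cells, stood at 0.0114 TPM. The metabotropic subunit Gabbr1 reached 519 ± 17.7 TPM and its partner Gabbr2 153 ± 22.3 TPM. Of 9 nicotinic receptor subunits 4 reached 1 CPM, led by Chrna4 at 35.3 TPM and Chrnb2 at 32.9 TPM. Chrna6, a subunit of dopamine neurons, stood at 0.337 TPM.

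**Figure D2:**
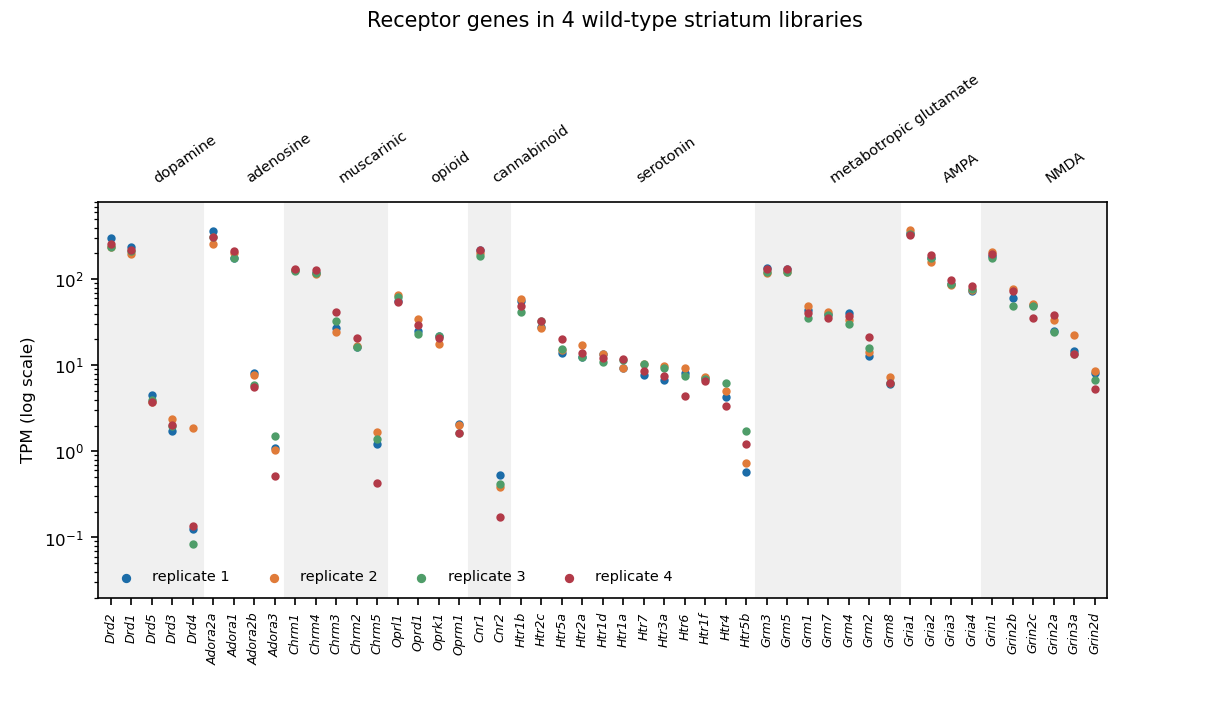
TPM on a log scale of the receptor genes of 9 families with a mean of at least 0.3 TPM, ordered by level within a family, with 1 point per wild-type library. Drd2, Drd1, Adora2a, Adora1, Cnr1 and Gria1 lie between 176 and 377 TPM in every library, and Drd4 stands out in replicate 2 at 1.88 TPM.

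The neuropeptide precursors spanned several orders of magnitude. Penk (4:4133531-4138819) led at 2396, 2158, 2099 and 1810 TPM. Pdyn, the dynorphin precursor, stood at 170, 181, 145 and 115 TPM and Tac1, the substance P precursor, at 158, 129, 140 and 122 TPM, and these 2 overlapped. Penk exceeded Pdyn by 3.81 and Tac1 by 3.95 on the log2 TPM scale, whereas Drd2 exceeded Drd1 by 0.25. Sst, somatostatin of a class of interneurons, stood at 1080, 1085, 1122 and 624 TPM, and Npy, made by the same class, at 444, 538, 421 and 415 TPM. Cck was at 147, 260, 146 and 122 TPM, highest in replicate 2, where the cortical markers also summed highest. The part of cortical tissue in that value was not tested. Nts, neurotensin, was at 25.2, 17.9, 29.9 and 7.27 TPM. Hcrt, the hypothalamic orexin precursor, stood at 0.133 TPM. Of 23 precursors 18 reached 1 CPM, and 13 of these 18 were lowest in replicate 4. Of all 10108 genes of at least 10 CPM, 31.9% were, but only 7 of the 23 precursors reached 10 CPM.

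Peptide processing genes were abundant. Behind Cpe at 3033 TPM came the chaperone Scg5 at 551 TPM and the granins Chgb at 544, Scg2 at 491 and Scg3 at 419 TPM. Chga was at 199, 489, 200 and 208 TPM and Vgf at 209, 339, 191 and 145 TPM, both highest in replicate 2. The prohormone convertase gene Pcsk1 was low, at 18.2 TPM.

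Components of cyclic AMP signalling were among the most abundant regulatory genes. Ppp1r1b (11:98348404-98357796), which encodes DARPP-32, stood at 1593, 1520, 1400 and 1367 TPM. Gng7, a G protein gamma subunit that assembles with the olfactory-type stimulatory subunit in these neurons, stood at 1203, 961, 1042 and 1049 TPM. Gnal, that stimulatory subunit, was at 264, 241, 216 and 238 TPM. With median transcript lengths Gng7 was no longer above Gnal. Adcy5, the cyclase that both dopamine receptors act on, stood at 611, 536, 495 and 522 TPM, above Adcy1 at 262, 271, 252 and 346 TPM in every mouse. Of the regulatory subunits of protein kinase A, Prkar1b and Prkar1a were at 844 ± 83.3 and 726 TPM, and Prkar2b at 140 TPM. Prkar1b shares its strand with the overlapping annotated gene Gm15672, so its value can include reads of that gene. The catalytic subunits Prkacb and Prkaca stood at 314 and 295 TPM.

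Enzymes that remove cyclic nucleotides were led by Pde1b, a calmodulin-dependent phosphodiesterase, at 858, 664, 741 and 774 TPM. Pde10a, known for its near restriction to spiny neurons, stood at 351, 284, 264 and 327 TPM. With median transcript lengths Pde1b was no longer above Pde10a. Rgs4 and Rgs9, which switch off G proteins, stood at 986 ± 89.4 and 200 ± 17.9 TPM. Rasd2, a small GTPase enriched in striatum, stood at 735 ± 74.9 TPM. Of the calcium-dependent kinases, Camk2a at 1687 ± 113 TPM was above Camkv at 854, Camk4 at 575 and Camk2b at 515 ± 39.2 TPM. The calcineurin subunits Ppp3r1 and Ppp3ca stood at 1263 ± 127 and 691 TPM.

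Of the doublecortin-like kinases, Dclk1 stood at 232, 277, 233 and 287 TPM, Dclk3 (9:111439081-111489118), the gene deleted in the series' other arm, at 130, 163, 111 and 119 TPM, and Dclk2 at 39.1 ± 2.47 TPM. The 3 ranges did not overlap.

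Among transmitter enzymes and transporters, the 15 genes of GABA and glutamate summed to 6295 TPM. The 5 of acetylcholine summed to 127 TPM and the 7 of dopamine to 246 TPM. Single members overlapped, since the first list went down to 11.5 TPM and the others up to 77.1 and 124 TPM. Gad1 and Gad2, which make GABA, stood at 363 ± 43.2 and 291 ± 70.4 TPM, and Glul, the glutamine synthetase of astrocytes, at 2069 ± 182 TPM. Slc17a7, the vesicular glutamate transporter of cortical cells, was at 560, 901, 678 and 687 TPM, in the same order over the mice as the cortical marker list of which it is a member. Of the cholinergic genes, Chat was at 16.1, 11.9, 10.4 and 10.4 TPM, the choline transporter Slc5a7 at 24.1 TPM and the vesicular transporter Slc18a3 at 7.87 TPM. Th, tyrosine hydroxylase, was at 8.27, 14.04, 7.42 and 6.14 TPM, and the dopamine transporters Slc6a3 and Slc18a2, whose messages are made in midbrain cell bodies, at 0.320 and 0.394 TPM. The breakdown enzymes Maob and Maoa stood at 52.1 and 51.1 TPM. In endocannabinoid metabolism, the hydrolases Abhd12 and Mgll at 392 and 209 TPM were above the synthetic enzyme Dagla at 97.2 TPM and Faah at 32.9 TPM.

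Of the transcription factors examined, the most abundant was Thra, a thyroid hormone receptor, at 625 ± 52.2 TPM. Nfe2l1, a stress-response factor, followed at 325 TPM and Tef, a clock output factor, at 299 ± 17.04 TPM. Of 31 factors linked to spiny neuron identity, 30 reached 1 CPM. Rxrg, a retinoid receptor, stood at 137 ± 8.15 TPM. Bcl11b, which encodes CTIP2, stood at 115, 119, 95.3 and 101.3 TPM, and Meis2 and Foxp1 at 98.0 and 59.7 TPM. Gsx2, a factor of the embryonic striatal progenitors, was at 0.119 TPM. Factors of cortical projection neurons were present as well, with Neurod6 at 84.3, Tbr1 at 70.0 ± 14.9 and Neurod2 at 38.7 TPM. The summed CPM of the 31 identity factors ranged 1.09-fold over the mice, and that of the nuclear receptors 1.03-fold, the least of all lists. Single members varied more than such sums, with a median coefficient of variation of 10.8% among the identity factors and 8.91% among the nuclear receptors, against 9.09% for all genes of at least 1 CPM.

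Activity-regulated factors are switched on within minutes of synaptic activity, in part through CREB, which binds the core site TGACG and its reverse complement in promoters. Egr1 was the most abundant of them in TPM, and the members differed in which mice they were high in. Egr1 stood at 212, 196, 208 and 318 CPM and Nr4a1 at 68.8, 67.6, 94.0 and 130 CPM, both highest in replicate 4. Npas4, a neuron-restricted factor, was at 31.5, 11.04, 8.86 and 25.8 CPM and Fos at 24.6, 14.97, 18.8 and 32.1 CPM, high in replicates 1 and 4. Junb and Jun were instead highest in replicate 2, with 27.7, 33.8, 29.9 and 21.2 CPM and 34.6, 45.1, 29.4 and 25.4 CPM. Srf, a factor present before stimulation, was at 71.5, 68.2, 66.7 and 69.3 CPM. Of the 18 members, 8 were highest in replicate 4, as were 22.1% of all 10108 genes of at least 10 CPM. That level was reached by 13 of the 18. The summed CPM of the list ranged 1.30-fold.

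Promoters of 3 of these factors and of Sst, itself a known CREB target, are shown as examples. They were picked because their genes vary between the mice and carry the CREB site. No link between the site and that variation was tested, and Sst, unlike Nr4a1, was lowest in replicate 4. Each is the 250 bases before the start in RefSeq's GRCm38.p6 annotation, 5′ to 3′ on the gene's strand, and capitals mark TGACG or CGTCA, which in Sst overlap as TGACGTCA. The windows are chr12:85473640-85473889 for Fos (plus strand), chr19:4989972-4990221 for Npas4 (minus strand), chr15:101266596-101266845 for Nr4a1 (plus strand) and chr16:23890845-23891094 for Sst (minus strand).
Fos: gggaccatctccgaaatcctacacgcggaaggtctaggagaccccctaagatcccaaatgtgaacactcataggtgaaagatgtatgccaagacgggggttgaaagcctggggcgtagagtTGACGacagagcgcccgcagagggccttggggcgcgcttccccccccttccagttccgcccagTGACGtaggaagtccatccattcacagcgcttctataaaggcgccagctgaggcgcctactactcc
Npas4: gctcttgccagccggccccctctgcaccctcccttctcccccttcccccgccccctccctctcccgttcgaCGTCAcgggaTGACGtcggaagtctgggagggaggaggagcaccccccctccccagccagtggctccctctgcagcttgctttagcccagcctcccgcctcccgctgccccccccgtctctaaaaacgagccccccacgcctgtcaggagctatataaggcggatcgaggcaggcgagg
Nr4a1: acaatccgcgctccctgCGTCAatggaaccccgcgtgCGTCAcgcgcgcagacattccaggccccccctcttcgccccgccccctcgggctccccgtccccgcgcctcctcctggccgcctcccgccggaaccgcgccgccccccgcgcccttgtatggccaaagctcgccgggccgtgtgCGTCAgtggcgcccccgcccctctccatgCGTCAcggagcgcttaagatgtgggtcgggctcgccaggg
Sst: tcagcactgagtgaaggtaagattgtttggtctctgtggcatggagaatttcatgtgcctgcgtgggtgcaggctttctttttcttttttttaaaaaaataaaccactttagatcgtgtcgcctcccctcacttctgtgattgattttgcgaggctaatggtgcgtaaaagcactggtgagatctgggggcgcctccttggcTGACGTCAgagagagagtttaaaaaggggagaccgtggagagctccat
The Fos window held 2 core sites, starting 129 and 66 bases before the start, that of Npas4 held 2 and that of Nr4a1 held 4. A gene can have more than 1 window, and the 15 activity-regulated factors with an entry had 19. Egr1 had no entry. The sequence TGACG, on either strand, was in a window of 12 of these 15 genes, the exceptions being Fosl2, Jun and Jund. It was in a window of 19.8% of all 27025 genes with an entry and of 29.9% of those with at least 1 CPM. By window, the share was 17.8% of all 32851 and 25.5% of those of genes with at least 1 CPM. The full site TGACGTCA, which contains TGACG, was in none of the 15 factors, in 1.77% of all genes and, among 19 peptide precursors, in Sst and Cartpt. A match describes the letters only.

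Marker lists of cell types were summed per library to describe what the dissections held. The 14 shared markers of spiny neurons summed to 8488 ± 610 TPM, the most of the 19 cell type lists on average. The list holds Penk, which is a peptide of the indirect pathway, and without it the sum was 6373 ± 459 TPM, close to that of the oligodendrocyte list. Scn4b, a sodium channel subunit of these cells, stood at 1011 ± 132 TPM and Ptpn5, a striatal tyrosine phosphatase, at 382 TPM. The direct-pathway and indirect-pathway lists summed to 716 and 713 TPM. Oligodendrocyte markers summed to 7518, 5689, 6623 and 6010 TPM, with Mbp at 1818 and Mobp, another myelin protein, at 743 TPM. Astrocyte markers summed to 4105 ± 142 TPM, the steadiest of the large lists. Gfap, the filament protein of reactive and ventricular-zone astrocytes, was an exception within it, at 187, 383, 163 and 134 TPM with its high value in replicate 2. Interneuron markers summed to 1900, 2001, 1915 and 1381 TPM, and Pvalb, the calcium buffer of fast-spiking cells, contributed 188 ± 13.8 TPM. Microglial markers summed to 1734 ± 118 TPM, with Ctss, a lysosomal protease, at 298 TPM. The homeostatic marker P2ry12 stood at 100.4 TPM. Endothelial and mural markers summed to 356 and 374 TPM. Cd3e, a T cell marker, was at 0.0624 TPM. The sums depend on how many genes a list holds and on which are short, and do not give cell numbers: with median transcript lengths the astrocyte sum was 13337 TPM and the microglial sum 768 TPM.

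**Figure D3:**
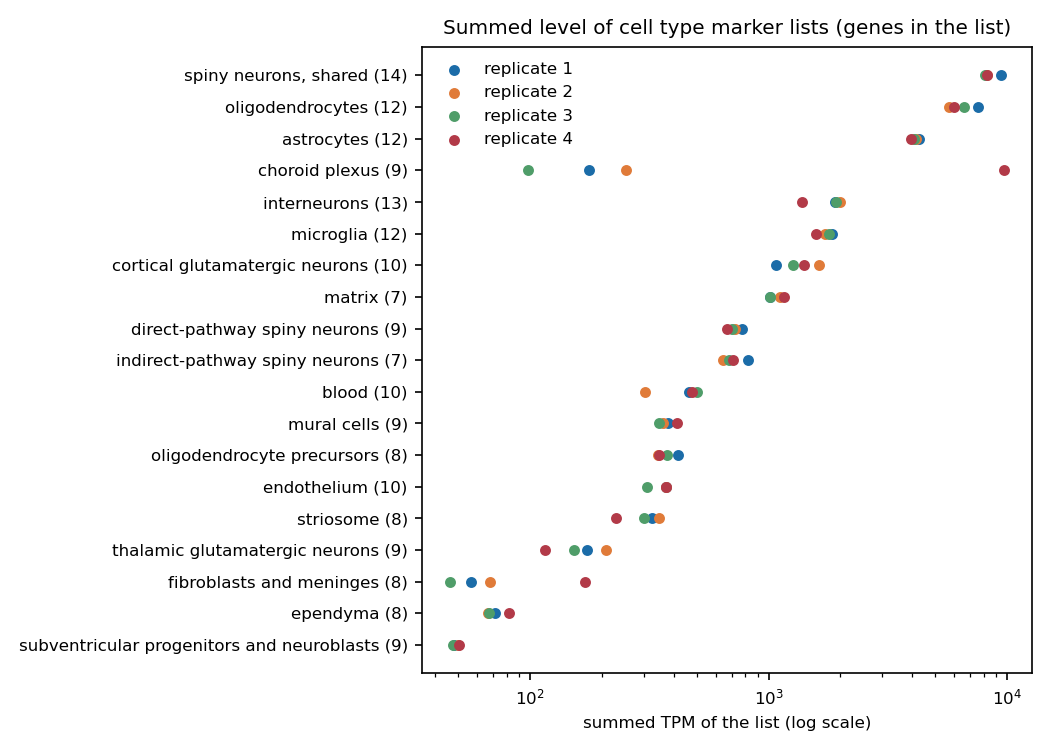
Summed TPM, on a log scale, of the markers of 19 cell types or compartments in the 4 wild-type libraries, with 1 point per library. By the mean with summed exon lengths, spiny neuron, oligodendrocyte and astrocyte lists lie highest, but in replicate 4 the choroid plexus list exceeds them. The choroid plexus list is at 98.0 to 252 TPM in 3 libraries and at 9731 TPM in replicate 4.

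The spread between mice was small for most genes. Among the 10108 genes with a mean of at least 10 CPM, the median coefficient of variation was 7.49%, with 10th and 90th percentiles of 3.36 and 15.3%. Removing the variance expected from counting left a median of 6.90%. A value of at least 10% beyond counting error was reached by 2764 genes (27.3%), at least 20% by 406 (4.02%) and at least 50% by 21 (0.208%). An edgeR dispersion common to all these genes corresponded to 10.5%. The count at 20% was 594, 326, 550 and 318 without replicates 1, 2, 3 and 4 in turn, and so fell most without replicate 4 or 2. Of the 406 genes, 202 were highest in replicate 2 and 118 in replicate 4, and 184 were lowest in replicate 4. These are 49.8, 29.1 and 45.3%, against 27.2, 22.1 and 31.9% of all 10108 genes. With 4 mice a single gene's coefficient is imprecise.

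Choroid plexus genes topped the list of variable genes. Ttr stood at 44.6, 64.4, 24.2 and 2669 CPM. Enpp2, which makes lysophosphatidic acid and is also an oligodendrocyte gene, stood at 337, 273, 301 and 1404 CPM. Kl, the klotho co-receptor of the epithelium, stood at 5.22, 8.30, 4.45 and 71.3 CPM and Prlr, the prolactin receptor, at 1.76, 1.68, 1.46 and 37.2 CPM. Igf2, made by choroid plexus and meninges, was at 37.7, 37.9, 32.2 and 151 CPM. All of these were high in replicate 4 only. Markers of fibroblasts and meninges, a list that includes Igf2, summed to 73.8, 86.7, 60.5 and 213 CPM. Without Igf2 the sums were 36.05, 48.8, 28.3 and 61.6 CPM, still highest in replicate 4 but by less.

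A second set was highest in replicate 2 and, for most, lowest in replicate 4. Prkcd, a protein kinase C known from thalamus and some striatal and extended amygdala neurons, stood at 40.2, 69.8, 26.1 and 10.4 CPM. Wfs1, a reticulum membrane protein abundant in ventral striatum and upper cortical layers, stood at 184, 348, 142 and 92.6 CPM. Pcsk1n, an inhibitor of prohormone processing, stood at 72.1, 173, 79.0 and 29.0 CPM. Chga stood at 134, 321, 136 and 136 CPM, and Cox8a, a small subunit of cytochrome oxidase, at 90.4, 180, 113 and 49.2 CPM. Thalamic markers, at 229, 297, 196 and 195 CPM, and cortical markers were also highest in replicate 2, and their part in these values was not tested. The thalamic list includes Prkcd, so that gene's own values enter its sums. Wfs1, Pcsk1n, Chga and Cox8a have 57.3 to 58.5% GC, and Prkcd 52.2%. Relative to the mean of the 4 mice, the 1857 genes of 55 to 60% GC had a log2 median of -0.07 in replicate 4. In replicate 2 it was -0.003. The part of GC content in this set was not tested. Of the 25 most variable genes, 14 were highest in replicate 2 and 10 in replicate 4.

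At the other end, Rac1, a GTPase of the cytoskeleton, stood at 215 ± 1.08 CPM, Ap1b1, a clathrin adaptor subunit, at 228 ± 1.06 CPM, Ripor1 at 95.7 ± 0.274 CPM and the transcription factor Sp3 at 74.2 ± 0.274 CPM. These spreads are below counting error, so how little such genes differ between mice was not detectable at this depth.

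**Figure D4:**
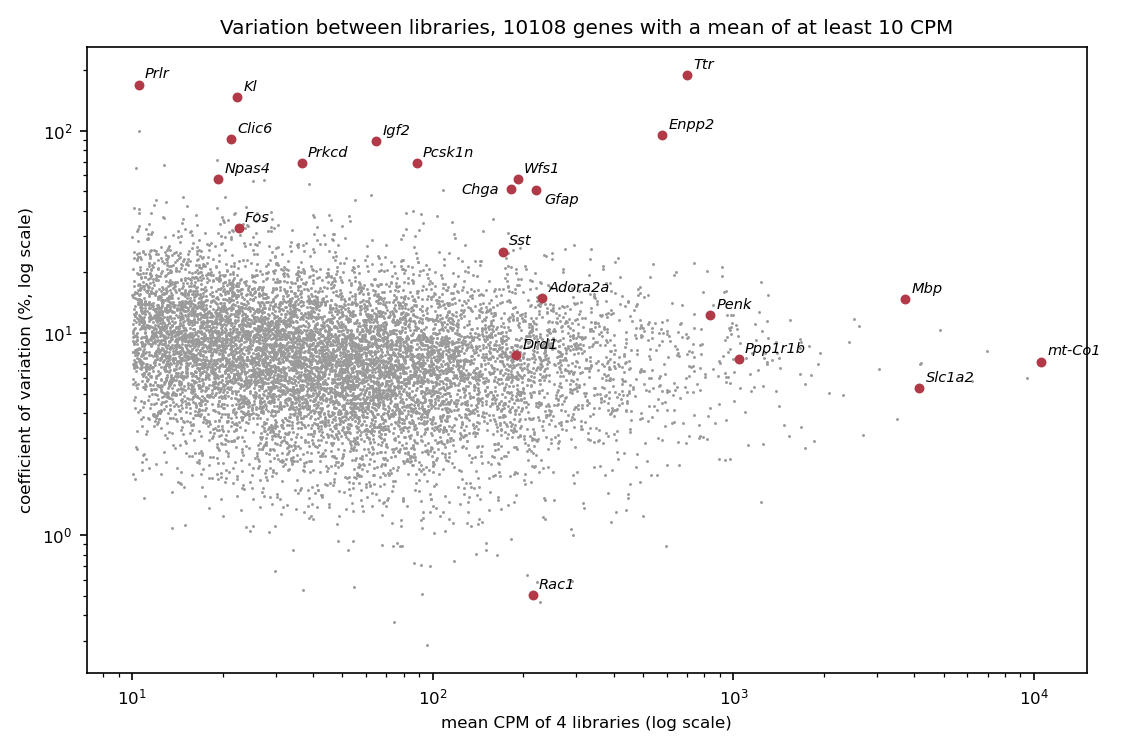
Coefficient of variation over the 4 wild-type libraries, in percent on a log scale, against mean CPM on a log scale for the 10108 genes with a mean of at least 10 CPM. Each grey point is a gene, and red points mark named ones. Ttr, Prlr, Kl and Enpp2 lie at the top, while Ppp1r1b, Slc1a2 and mt-Co1 lie within the bulk.

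The sums of several lists were high or low in 1 replicate. In replicate 4 the striosome sum was low, with 381, 401, 370 and 267 CPM. So were those of interneuron markers at 562, 574, 537 and 432 CPM and neuropeptide precursors at 1562, 1478, 1459 and 1139 CPM. Not all members went along: 5 of 8, 8 of 13 and 13 of 18 with at least 1 CPM were lowest there. Of all genes of at least 10 CPM, 31.9% were, but only 6, 9 and 7 members of these lists reached 10 CPM. The striosome marker Lypd1 had a large part in its list's sum, at 100, 113, 112 and 45.1 CPM. The lists share members, since Sst is both an interneuron marker and a precursor and Pdyn both a striosome marker and a precursor. Without Sst the interneuron sums were 373, 387, 337 and 325 CPM, and without Pdyn the striosome sums were 262, 276, 266 and 189 CPM. Without both, the precursor sums were 1254, 1168, 1155 and 953 CPM. Without replicate 4 the range of the neuropeptide list was 1.07-fold in place of 1.37-fold, and that of the striosome list 1.08-fold in place of 1.498-fold. Oligodendrocyte markers were highest in replicate 1, in 10 of 12 members, and spiny neuron markers too, in 11 of 14, where 17.3% of all genes of at least 10 CPM were highest in that replicate. Cortical markers were lowest in that replicate, in 8 of 10 members, where 21.1% of all such genes were. Ribosomal protein genes were highest in replicate 3, in 46 of 68 members with at least 1 CPM, and so were nuclear oxidative phosphorylation genes, in 56 of 74. Of all genes of at least 10 CPM, 33.5% were highest there, and 45 and 70 members of these lists reached 10 CPM. Genes with exons of under 2000 bases in all had a median of 0.14 above the mean on the log2 scale in replicate 3 and -0.13 in replicate 4. Those of at least 60% GC had -0.15 in replicate 4. Penk, the leading precursor, has 1634 bases of exons. The part of transcript length and GC content in the list sums, those low in replicate 4 included, was not tested. AMPA receptor subunits and reference genes ranged 1.06-fold, dopamine receptors 1.24-fold and NMDA receptor subunits 1.28-fold.

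**Figure D5:**
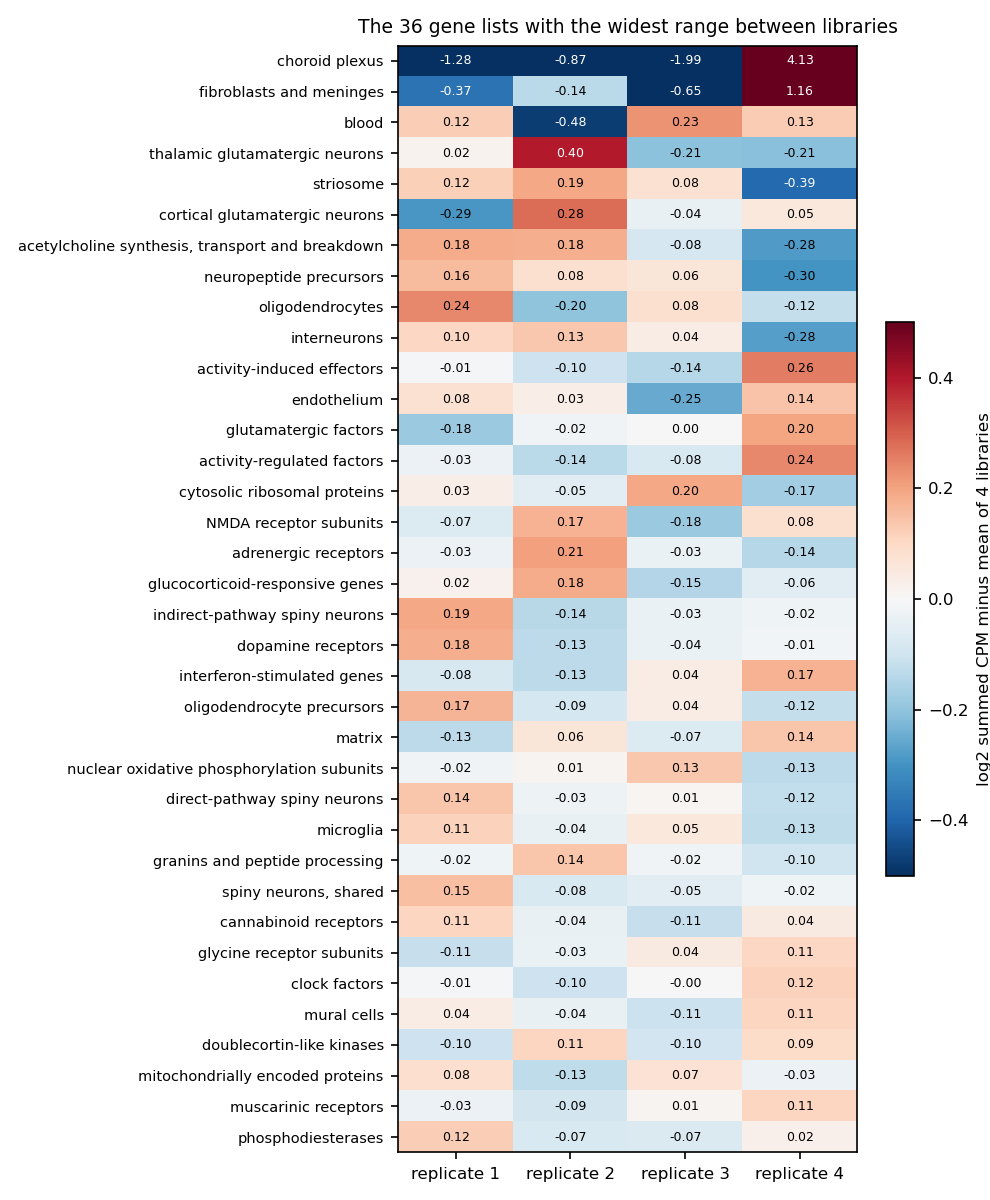
Log2 of the summed CPM of a list in each wild-type library minus the mean of the 4, for the 36 lists with the widest range. Red is higher and blue lower, with colours limited to 0.5 either way and the value printed in each cell. The choroid plexus list reaches 4.13 in replicate 4, and the fibroblast and meninges list 1.16.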

How the data were processed

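RNA sequencing measured 4 wild-type striata, 1 library per mouse. The authors deposited raw read counts of each Ensembl gene, and only such columns were used. Per the submitters' processing notes, bcl2fastq 2.17.1.14 and the build mm10 were used. Aligner, counter, annotation and strand setting: not given in the sources used here, so reads of overlapping or near-identical genes cannot be assigned with certainty. Of the 31417 identifiers, 31292 matched the GENCODE annotation of GRCm38, and the other 125 held 0.0435% of counts.

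CPM were computed from each library's total count, and TPM from summed exon lengths, with Python 3.11.15, numpy 2.4.6 and pandas 2.3.3. No groups were tested against each other, since there is 1, and Dixon's criterion was applied to the values of the 4 mice. Values are means, SDs and coefficients of variation over 4 mice, and an intercept-only edgeR 4.0.16 model in R 4.3.3 gave a dispersion. Counting variance was subtracted to give the variation beyond counting error. Simulated data with 200 of 10108 genes set to a coefficient of 40% and the rest to 5% recovered 89.5% of the former at 20% or more, and 0% of the latter. That 5% is below the median of 6.90% found here and was the same for every such gene. The 0% therefore does not tell how many of the 406 genes at 20% or more passed through imprecision with 4 mice. A gene with no count was set against a floor of 3 counts, which covers counting error only and treats PCR copies as if they were separate molecules. Whether a library's extraction or sequencing fell into batches is not given in the labels.

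The 69 gene lists written by hand, and 3 made by symbol, hold members that were chosen with earlier results of these data known. Genes named were the 30 highest by CPM and 20 by TPM, up to 8 of each list with the lowest and uncounted members, the 25 most and 10 least variable with at least 10 CPM (predicted genes counted but not named, here 1), all reference and sex-linked genes, and the 5 leaders of each non-coding class, and some of these are not reported here. Other scalings (TMM, DESeq2 1.42.0 size factors, totals without mitochondrial genes), other transcript lengths, other minimum counts and the omission of each mouse were tried. The sums of 5 lists without a member that another list holds, the shares of 50-base stretches that genes have in common, the bins of exon length and the order of gene pairs under other lengths were added after the data had been seen.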

Additional observations from a re-analysis of the deposited data

Results flagged for a closer look

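A gene or list is given here when the value of 1 mouse stood apart from the other 3 by Dixon's criterion at the 95% level. Chance alone gives about 1 in 20, and 538 of the 10108 genes with at least 10 CPM met it (5.32%), as did 42 of the 523 named genes examined (8.03%) and 3 of 72 lists. The named genes include, by the rule that chose them, the most variable ones, so their share is not comparable with that of all genes.

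In replicate 4, 19 named genes stood apart on the high side. Most are genes of the choroid plexus or of meningeal cells: Ttr at 2669 CPM, Enpp2 at 1404, Igf2 at 151, Kl at 71.3, Ace at 70.3, Clic6 at 50.2, Prlr at 37.2, Aqp1 at 25.2, Folr1 at 22.0, Kcne2 at 17.8, Cldn2 at 15.2, Otx2 at 9.07, Ogn at 7.67 and Lum at 5.30 CPM. The choroid plexus list summed to 2917 CPM there. The other 5 were Adcy1 at 1030 CPM, Egr1 at 318, Nr3c1 at 171, Rorb at 61.6 and Chrm2 at 30.2 CPM. On the low side of replicate 4 were the peptide-processing Cpe at 1710 CPM, the protease inhibitor Cst3 at 629, Rps15 at 111, Sst at 107, Esrra at 60.5, Grin2c at 42.4, the striosome gene Sema5b at 22.99, Adra2a at 6.97 and Isl1 at 6.54 CPM.

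In replicate 2, the high genes were Chga at 321 CPM, Trib2 at 92.2, the vesicular glutamate transporter Slc17a6 of thalamic cells at 36.4, Grik4 at 31.8, Adra1b at 20.4, Mcm6 at 20.4 and Ppia at 12.0 CPM. The low genes were the clock genes Tef at 517 CPM and Cry2 at 164, with Gabra4 at 203 CPM. Sp3, at 73.8 CPM, met the criterion although its whole spread was below counting error. The list of phosphatases and their regulators was low there as well, at 8823 CPM.

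Csf1r of microglia was high in replicate 1, at 175 CPM, and Gucy1b1 was low, at 244 CPM. The list of subventricular progenitors and neuroblasts met the criterion on the low side in the same mouse, at 73.6 CPM. The other mice were at 76.8, 77.0 and 77.1 CPM, so its whole range was only 1.05-fold. Slc2a1, the glucose transporter of vessels, was low in replicate 3, at 71.3 CPM.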

How the results depend on the processing

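No paired analysis was possible because the results come from 1 genotype and from no test. Of 322 alternatives over 51 results, 263 moved a value by less than the spread between mice, or a count or fold by less than 1.5 times, 54 moved it by more and 5 reversed an order whose ranges did not overlap, and neither TMM nor DESeq2 scaling was among the last 2 kinds. Without mitochondrial genes in the total, the top 10 and top 100 genes held 3.34% and 14.7% of the counts. With the longest transcript in place of summed exons, summed TPM was 43999 for enzymes, 8846 for receptors, 7959 for transcription factors, 7311 for oligodendrocytes and 1465 for microglia. With the median transcript it was 56285 for enzymes, 7974 for peptides, 10650 for receptors, 9957 for transcription factors, 8358 for oligodendrocytes, 13337 for astrocytes, 768 for microglia and 817 for cortical neurons, and 10 of the 20 genes with the highest TPM were shared. On the log2 TPM scale the median length reversed Gria1 over Gria2 (-0.98), Pde1b over Pde10a (-0.0731), Gng7 over Gnal (-0.0663) and Htr1b over Htr2c (-0.20), and the longest length the last of these (-0.18). In all, 125 of 132 alternatives kept the sign of a pair's difference, and besides the 5 above, 2 did not, for a pair with overlapping ranges. With all genes of at least 1 count, the median coefficient of variation was 20.9% and 7449 genes reached 20% beyond counting error. That count was 1376 from 1 CPM upwards and 122 by edgeR's gene-wise dispersion. The mean of log2 CPM over members gave a choroid plexus range of 18.1-fold.

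Leaving out 1 mouse in turn gave 318 to 594 genes at 20% and a median coefficient of 6.64 to 7.74%. The choroid plexus range was 2.175 to 69.5-fold, with 2.175 without replicate 4, and that of fibroblasts and meninges 1.43 to 3.51-fold. Depth limits genes near 3 counts, such as Gabra6, Galr2 and Xist.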

Other observations

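Promoter letters differed between genes of different level in this tissue, as a description with no test. The TATA sequence TATAAA, on either strand within the 250 bases before the start, was in 18.1% of windows of genes without a count, 13.4% at up to 1 CPM, 8.62% from 1 to 10 CPM, 5.75% from 10 to 100 CPM, 5.58% from 100 to 1000 CPM and 9.72% above. The CREB core site TGACG ran the other way up to the middle of the scale, with 11.9, 13.98, 21.4, 27.1, 26.5 and 20.8% in the same order. The last class holds only 72 windows of 45 genes.

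Genes of high GC content were lower in replicate 4. The 409 genes with at least 60% GC had medians of 0.05, 0.07, 0.04 and -0.15 on the log2 scale relative to the mean of the 4 mice, and 9.05% of them varied by at least 20% beyond counting error, against 4.02% of all 10108 genes.

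One predicted gene, 1520401A03Rik, was at 0.170 CPM in replicate 1 and at 22.3, 32.7 and 21.6 CPM in the others.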
